A study of Mus musculus with 12 samples.

Results

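Transcripts of 8 genes known from white blood cells, Ptprc, Cd52, Lyz2, Tyrobp, S100a8, S100a9, C1qa and Cd74, were followed in 12 libraries of mouse embryos. The genes were named in advance of this description as a set and are 8 of the 55291 genes in the deposited table, in which all 8 were found. The libraries came from 5 female and 7 male C57BL/6J embryos of wild-type genotype at embryonic day 7.0, all untreated. The females came from 5 litters (3, 4, 6, 8 and 9, 1 embryo each). The males came from 5 litters, with 2 embryos each from litters 3 and 6 and 1 each from litters 2, 5 and 9. The labels call the tissue an embryo and do not say how far membranes and maternal tissue were taken off. Each embryo is a separate animal, and littermates share a mother.

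Leukocytes are the nucleated cells of the blood and of the immune system. At the stage of gastrulation the embryo proper has no circulation, and its earliest macrophages arise from the yolk sac, which is forming at about this time. The pregnant uterus around it is rich in macrophages and in uterine natural killer cells, which hold granule proteins and reshape vessels. Ptprc (CD45) is the tyrosine phosphatase on the surface of nearly all leukocytes, and Cd52 is a small glycoprotein on lymphocytes and monocytes. Lyz2 is the lysozyme of macrophages and neutrophils, Tyrobp (DAP12) passes signals from receptors on myeloid and natural killer cells, and C1qa is a chain of the complement starter C1q made by macrophages. S100a8 and S100a9 form calprotectin, a calcium- and metal-binding complex abundant in neutrophils. Cd74, the invariant chain, guides MHC class II molecules through cells that present antigen.

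The libraries held 83.1 to 114.4 fragments in units of 1000000, estimated from the value of 1 fragment, with 85.4 to 97.4 in females and 83.1 to 114.4 in males. In these units 1 fragment was worth 0.830 to 1.13 normalized counts, so that a gene listed at 0 could still have a level of up to 2.49 to 3.40 (3 fragments), counting error only. Eomes and Mixl1, transcription factors of the primitive streak, ran from 5550 to 25909 and from 4951 to 30274 normalized counts; they were chosen to check the label after their values were seen. All 10 genes of a visceral endoderm list, the layer around the epiblast, were above 0 in all 12 libraries, as were 12 of 14 genes of a list for maternal decidual stroma. Of all 55291 genes, 26.1% were above 0 in all 12, and the lists may hold genes that other tissues also express. Female replicate 5 and male replicate 4 stand apart in Lamb1, a laminin chain abundant in parietal endoderm, at 47040 and 46850 against 9943 to 18770 in the other embryos. In bulk libraries, fewer cells of a type and less RNA per cell cannot be told apart.

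The genes of 2 neighbouring pairs illustrate how unevenly this set is measured. On GRCm38, Lyz2 lies on chromosome 10 from 117277331 to 117282321 (minus strand), 5475 bases from its paralog Lyz1 (117287797 to 117292868, minus strand), a lysozyme known from Paneth cells of the gut. S100a8 lies on chromosome 3 from 90668978 to 90670035 (plus strand), with 22596 bases between it and S100a9 (90692632 to 90695721, minus strand). Lyz2 was above 0 in all 12 embryos and Lyz1 in none, and S100a8 was 14.2-fold higher in mean than S100a9, on the scale of normalized counts. The 250 bases upstream of each of these starts follow, as RefSeq gives them on GRCm38.p6, to show how alike the promoters of each pair are. Capitals mark AGGAAG or its complement CTTCCT, a form of the site that PU.1 and other ETS factors of blood cells bind, searched on both strands. Shorter or other forms of the site were not searched for.
Lyz2, chr10:117282273-117282522, minus strand: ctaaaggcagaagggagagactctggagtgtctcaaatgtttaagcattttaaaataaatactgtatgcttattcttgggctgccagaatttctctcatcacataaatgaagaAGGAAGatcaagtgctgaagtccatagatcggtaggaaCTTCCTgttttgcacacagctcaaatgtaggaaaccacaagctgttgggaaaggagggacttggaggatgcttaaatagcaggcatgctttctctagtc
Lyz1, chr10:117292869-117293118, minus strand: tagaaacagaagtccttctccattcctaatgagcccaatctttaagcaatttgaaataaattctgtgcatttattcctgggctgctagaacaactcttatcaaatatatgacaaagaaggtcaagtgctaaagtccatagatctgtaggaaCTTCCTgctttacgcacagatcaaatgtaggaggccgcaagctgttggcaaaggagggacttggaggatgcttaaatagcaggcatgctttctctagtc
S100a8, chr3:90668821-90669070, plus strand: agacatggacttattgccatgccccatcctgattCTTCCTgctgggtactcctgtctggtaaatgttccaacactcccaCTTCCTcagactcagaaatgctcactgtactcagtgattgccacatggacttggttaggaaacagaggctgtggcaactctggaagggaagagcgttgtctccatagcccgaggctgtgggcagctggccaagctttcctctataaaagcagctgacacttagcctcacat
S100a9, chr3:90695722-90695971, minus strand: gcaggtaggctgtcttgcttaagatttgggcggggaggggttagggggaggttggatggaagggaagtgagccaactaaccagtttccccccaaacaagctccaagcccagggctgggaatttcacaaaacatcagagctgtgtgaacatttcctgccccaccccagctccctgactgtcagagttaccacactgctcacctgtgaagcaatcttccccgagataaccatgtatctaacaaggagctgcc
The Lyz2 and Lyz1 sequences were identical at 60.8% of the 250 aligned positions and at 92% of the last 100, and both held a match 99 bases upstream of the start. Lyz2 held another match 137 bases upstream. S100a8 had matches 216 and 171 bases upstream and S100a9 had none to this form, with 26.4% identity between them. A match is common, since 29.5% of 32851 promoters of this length held it, and it is a description of letters only. Of the 8 genes, 4 were matched by symbol in the promoter table used. The GENCODE starts of Lyz2 and S100a8 lie inside the windows printed, because RefSeq places them further downstream.

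The remaining genes are spread over the genome. Ptprc lies on chromosome 1 from 138062861 to 138175708 (minus strand) and Tyrobp on chromosome 7 from 30413760 to 30417585 (plus strand). Cd52 (134082448 to 134095082) and C1qa (136895917 to 136898803) are both on the minus strand of chromosome 4. Cd74 lies on chromosome 18 from 60803848 to 60812652 (plus strand).

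S100a8, Lyz2 and Cd74 were measured in all 12 embryos, while the other 5 genes were at 0 in between 2 and 11 of them. S100a8 stood at 198, 49.8, 8.36, 189 and 73.0 normalized counts in female replicates 1 to 5, and in males at 55.1 at the lowest, 122 at the median and 217 at the highest. Female replicate 3 was thus the lowest embryo, 26.0-fold below male replicate 5, and the other females fell within or just below the male range. Its partner S100a9 stood at 19.8, 0, 0, 4.33 and 5.64 in females, and in males at 0, 7.02 and 25.9 (lowest, median and highest). It was at 0 in 4 of 12 embryos, and the sexes overlapped.

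Lyz2 stood at 202, 211, 32.4, 29.1 and 672 in female replicates 1 to 5, and in males at 48.1, 172 and 334 (lowest, median and highest). Female replicate 5 was the highest of all 12 and male replicate 4, at 334, the next, and these are the same embryos that stand apart in Lamb1; whether the Lamb1 tissue bears on Lyz2 was not tested. Lyz2 varied more than most genes of its level, with a coefficient of variation of 0.925 against a median of 0.414 among 1362 genes within 1.5-fold of its mean, of which 1.98% varied as much. Cd74, the invariant chain, stood at 214, 16, 9.46, 202 and 443 in female replicates 1 to 5, and in males at 37.6, 77.9 and 208. Its highest and lowest embryos were both female and 46.9-fold apart. Its coefficient of variation was 0.893 against a median of 0.468 among 1334 genes of like level, of which 3.52% varied as much. For S100a8, 33.2% of genes of like level varied as much.

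Tyrobp stood at 9.99, 43.3, 0, 40.4 and 66.3 in female replicates 1 to 5, and in males at 0, 14.8 and 94.4. Male replicate 3 held the highest value, and female replicate 3 and male replicate 2 held none. Cd52 stood at 4.90, 0, 0, 0 and 13.4 in females, and in males at 0, 8.03 and 26.3. Its values rest on at most 25.7 fragments in a library, and 3 of its 4 zeros are female.

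Ptprc, the general leukocyte marker, was at 19.6 in female replicate 1 and at 14, 20.5 and 28.3 in male replicates 1, 4 and 6, and at 0 in the other 8 embryos. Where it was present it rested on 14 to 25.0 fragments, so its values jumped from 0 to well above the limit of 3 fragments with none between. Of 1754 genes within 1.5-fold of its mean, 28.8% were at 0 in as many embryos. C1qa was seen in female replicate 5 alone, at 16.8 normalized counts and 15.0 fragments, and was listed at 0 in the other 11 embryos. Its gene neighbours and partners in C1q were as sparse, with C1qb at 11.8, 15.7 and 1.12 in female replicates 1, 3 and 5 and C1qc at 8.85 and 37.7 in female replicates 1 and 4 and at 20.6 in male replicate 2. In no embryo were all 3 chains of C1q above 0.

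Per kilobase of the longest coding transcript the mean levels ran from S100a8 at 238 normalized counts through Lyz2 at 148, Cd74 at 97.2, Tyrobp at 49.7, S100a9 at 15.8, Cd52 at 14.3 and Ptprc at 1.35 to C1qa at 1.35. Neighbours in this order did not differ by more than the larger of their SDs over 12 embryos in any of the 7 steps. Summed over the 8 genes, 0.529 to 13.5 per 1000000 normalized counts were found in females (median 4.91) and 2.40 to 7.31 in males (median 4.68). The lowest and highest sums were both female, in replicates 3 and 5. Littermates of litter 6, which holds female replicate 3, spanned 26.0-fold in S100a8 and 22.0-fold in Cd74, and 2.41-fold in Lyz2. The spans were smaller in litters 3 and 9, at 2.62-fold and 2.44-fold for S100a8, 2.95-fold and 3.06-fold for Cd74 and 4.19-fold and 2.91-fold for Lyz2.

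**Figure D1:**
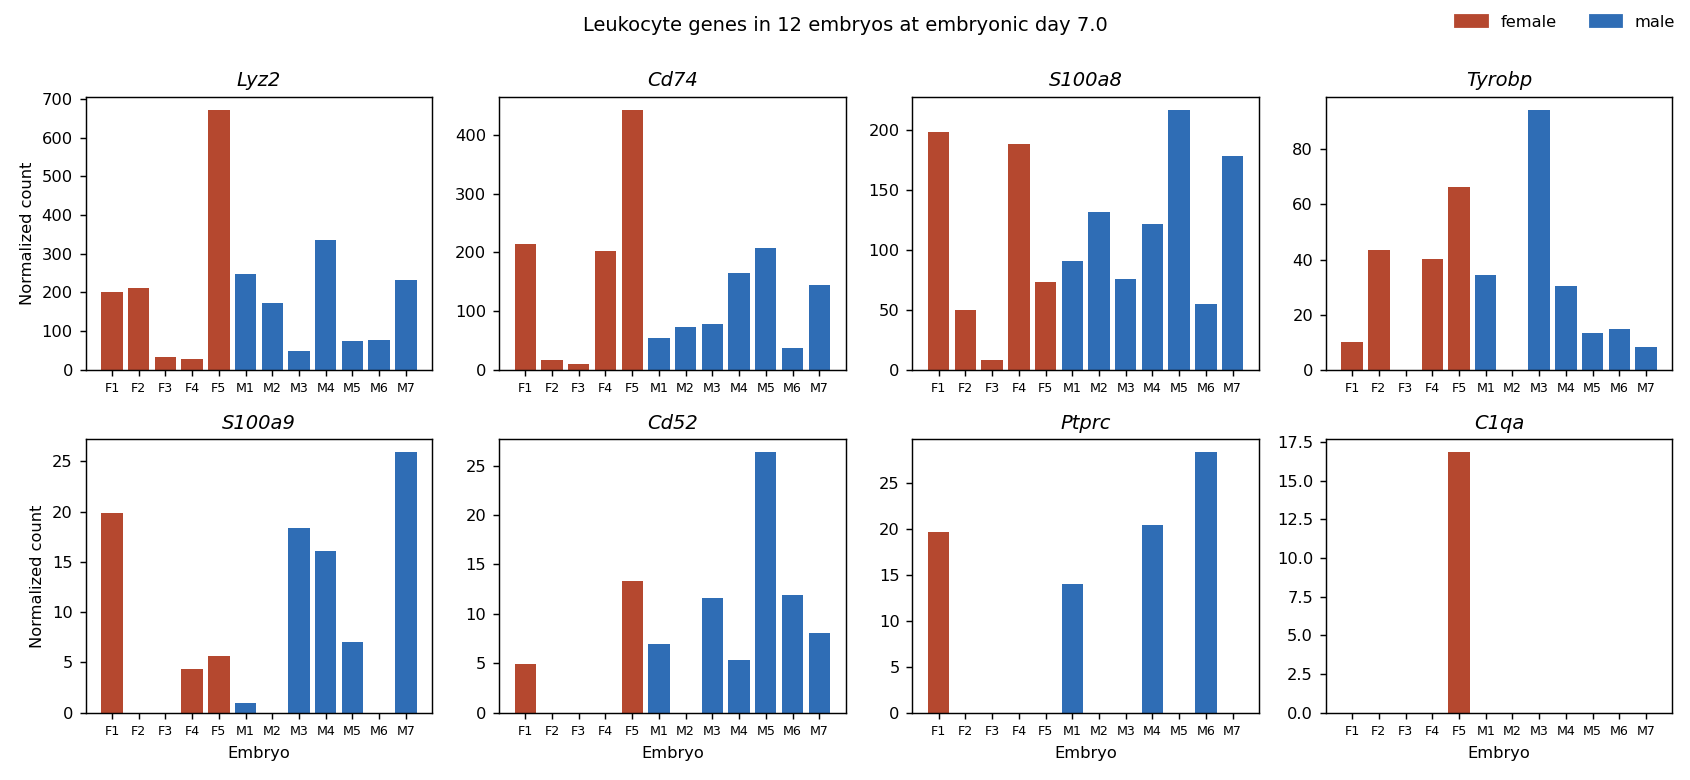
Normalized counts of the 8 genes, 1 bar per embryo and 1 panel per gene on its own linear axis from 0, with F1 to F5 for the female and M1 to M7 for the male replicates. S100a8, Lyz2 and Cd74 are above 0 in all 12 embryos, Ptprc is above 0 in 4 and C1qa in 1.

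Genes of the leukocyte classes were measured unevenly. Of 20 pan-leukocyte genes, 5 were above 0 in all 12 embryos (25.0%), against 26.1% of all 55291 genes in the table, and 5.0% were at 0 in all 12, against 53.5% of all genes. The best measured, Lcp1, Ptpn6 and Coro1a, are an actin bundler, a phosphatase and an actin regulator. Lcp1 ran from 2461 to 4680 normalized counts, far above Ptprc. Of 24 macrophage and monocyte genes, 4 were above 0 in all 12 (Lyz2, Csf1r, Cd68 and Fcgr3). Csf1r, the receptor for macrophage growth factor, which trophoblast also expresses, ran from 154 to 906, and Fcgr3, an antibody receptor, from 75.5 to 521. Fcgr1, Cd163 and Vsig4 (12.5% of the list) were at 0 in all 12, and Adgre1 (F4/80), Aif1, Mpeg1, Cx3cr1 and Ccr2 were above 0 in 1 or 2 embryos. These absent or rare genes, and those named so in the next paragraphs, were picked after their values were seen.

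Of 19 neutrophil genes, 5 were at 0 in all 12 embryos (26.3%, against 53.5% of all genes). Another 8 of the 19 were above 0 in 1 or 2 embryos, against 4535 of all 55291 genes. The 3 above 0 in all 12 embryos made up 15.8%, against 26.1% of all genes. They were S100a8, Mmp9, a gelatinase that trophoblast giant cells also make, at 86.9 to 3009, and G0s2, a lipase inhibitor, at 24.7 to 166.7. Mmp8, Elane, Cebpe, Stfa2 and Stfa3 were at 0 in all 12 embryos. Csf3r, the receptor for granulocyte growth factor, was at 63.5 in female replicate 4 and at 0 elsewhere, and Ly6g was at 20.1 in male replicate 1 and at 0 elsewhere.

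Of 11 MHC class II genes, 6 were above 0 in all 12 embryos (54.5%, against 26.1% of all genes). Among them, H2-Ab1, a beta chain, was at 294 to 662 and H2-DMa, which helps load peptide, at 167 to 445. Ciita, the transactivator of these genes in antigen-presenting cells, was at 3.07 in male replicate 5 and at 0 in the other 11. H2-Aa, the alpha chain that pairs with H2-Ab1, was at 0 in 3 embryos (female replicate 3 and male replicates 2 and 5) and reached 99.3 in male replicate 4.

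Of 18 uterine natural killer genes none was above 0 in all 12 embryos, against 26.1% of all genes. Ncr1, Klrd1 and Ifng (16.7% of the list, against 53.5% of all genes) were at 0 in all. Male replicate 3 was the exception among males. It held Prf1, the pore-forming perforin, at 309.6 normalized counts, Gzma and Gzmb, its granzyme partners, at 215 and 274.8, and Il2rb, an interleukin receptor chain, at 239.2. In the other embryos Prf1 reached 32.9, Gzma 14.6, Gzmb 47.1 and Il2rb 58.1. Gzmc, Gzmd, Gzme, Gzmf and Gzmg were also highest in male replicate 3. Other genes of the list peaked elsewhere, with Nkg7 at 75.2 in male replicate 2, Tbx21 at 125 in male replicate 4 and Itga2 at 79.7 in male replicate 5. These were at 45.1, 74.7 and 29.4 in male replicate 3, where Klrb1c, Klrk1 and Ptprc were at 0. The class sum in that embryo was 1497, where the remaining males had 109 to 357.2 and the females 127 to 301. This is also the embryo with the highest Tyrobp, 94.4, and the highest Prl8a2, a prolactin-family gene of the decidua, at 41907. The next highest Tyrobp was in female replicate 5, where Prf1 was at 0; the part of natural killer cells in the Tyrobp values was not tested.

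Of 12 T cell genes, 4 were above 0 in all 12 embryos (33.3%, against 26.1% of all 55291 genes). These were the signalling genes Lck and Cd247, the coreceptor gene Cd8a and Trbc2, a receptor chain, at 12.3 to 52.4. The list was led by Lck, a kinase of T cell receptor signalling, at 1629 to 2778, and Cd8a at 228 to 569, with the sum of the list at 2398 to 3631 in females and 2005 to 2975 in males, and Cd3d and Cd4 were above 0 in 1 or 2 embryos. Of 10 B cell genes none was above 0 in all 12, and Pax5 and Blk were among those at 0 in all. The 3 that passed the filter, Cd79a, Cd79b and Igkc, were at 0 in 1, 3 and 2 embryos and reached 19.6, 40.7 and 44.9. The B cell sums were 28.7 to 129.5 in females and 13.1 to 125.8 in males. A list of 12 genes held Tyrobp, its partners and their signalling proteins. Of these, the kinase Syk and the phospholipase Plcg2 were above 0 in all 12 embryos. The receptor Trem2 was at 0 in 4 embryos and reached 32.6, and Cd300lb and Sirpb1a were above 0 in 1 or 2. The receptors Trem1, Trem3, Clec5a and Siglech were at 0 in all. Fcer1g, an adaptor related to Tyrobp, ran from 0 in female replicate 3 to 85.3 in female replicate 5. Hcst (DAP10), the other adaptor relative, reached 6.96 at most and was at 0 in 9 embryos. Of 9 classical complement genes, 3 were above 0 in all 12 (C2, C3 and Serping1). Of 17 genes of the S100 family 9 were (52.9%, against 26.1% of all genes), with S100pbp, which encodes a binding partner, left out of that list.

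**Figure D2:**
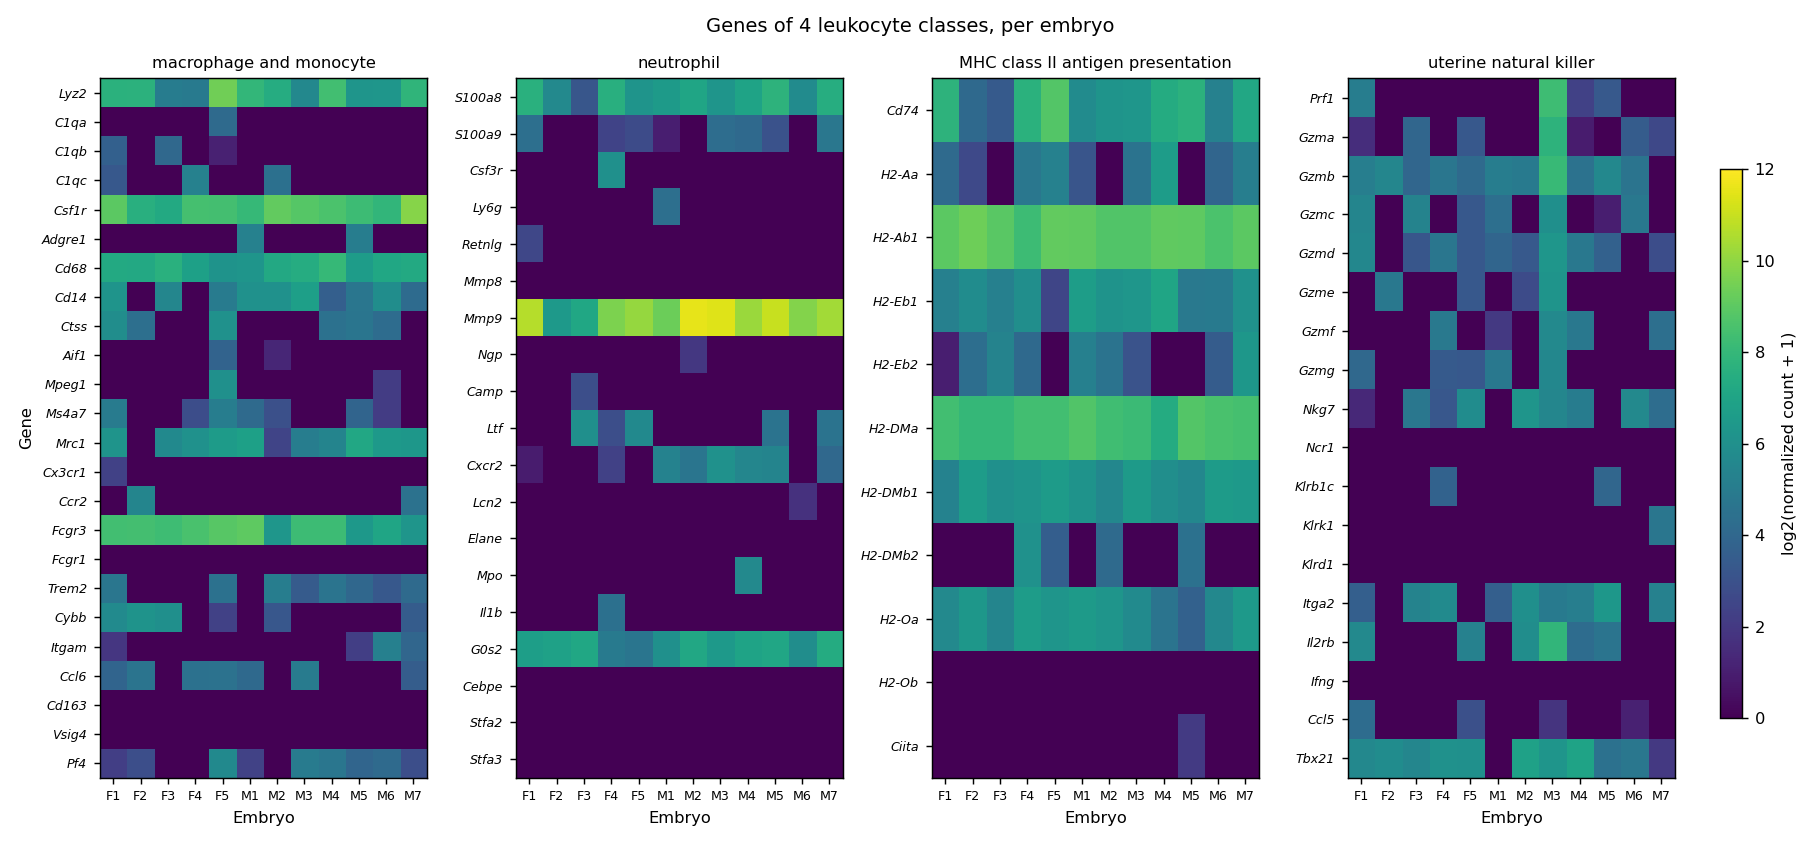
Heat maps of log2(normalized count + 1), genes in rows and the 12 embryos in columns, for the macrophage, neutrophil, MHC class II and uterine natural killer lists, with the darkest colour at 0. MHC class II has 6 of 11 genes above 0 in all 12 embryos and the natural killer list none, and the M3 column holds the brightest Prf1, Gzma, Gzmb and Il2rb.

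Which of these genes rise and fall together was asked over the 12 embryos, on log2(normalized count + 1). Ptprc and C1qa, at 0 in 8 and 11 embryos, were left out, which gave 15 pairs of 6 genes. S100a8 and Cd74 rose and fell together, with Pearson r = 0.783 (permutation p = 0.00192, adjusted p = 0.0288 over the 15 pairs) and Spearman rho = 0.692 (permutation p = 0.0156, adjusted p = 0.132). No other pair passed. Genes with an r of at least 0.7 with Cd74 made up 0.966% of the 16454 others tested, and S100a8 and S100a9 were both above it. S100a9 with Cd74 had r = 0.719 (adjusted p = 0.0625, rho = 0.680), and S100a8 with S100a9, whose proteins form a complex, had r = 0.587 (permutation p = 0.0281, adjusted p = 0.140, rho = 0.598).

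The S100a8 and Cd74 relation rests in part on 2 low embryos. Female replicates 3 and 2 lie farthest from the median of S100a8, and without them r was 0.469 (permutation p = 0.169, n = 10). Leaving out 1 embryo at a time gave r from 0.634 (without female replicate 3) to 0.922 (without female replicate 5). With litter means subtracted, which leaves the 8 embryos of litters 3, 6 and 9, the r was 0.795 (exact permutation within litters, p = 0.208, where 0.0139 is the smallest p that the 72 orders allow; adjusted p = 0.455). Over the means of 7 litters the r was 0.861 (exact permutation p = 0.0117), and for S100a9 with Cd74 it was 0.909 (exact permutation p = 0.00575), neither below 0.05 when adjusted over the 15 pairs.

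Lyz2 and Tyrobp did not track the others past the threshold. Lyz2 had r from 0.192 to 0.380 with the 5 other genes, and Tyrobp from 0.218 to 0.441, with adjusted p of 0.370 or more. Without female replicates 3 and 2 the r of Lyz2 with S100a8 was -0.159. Of all other genes tested, 0.432% had an r of at least 0.7 with Lyz2 and likewise 0.432% with Tyrobp, and none of the leukocyte genes did. With S100a8 the share was 1.46%. Cd52 had r from 0.280 to 0.527, and its adjusted p were 0.275 or more.

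**Figure D3:**
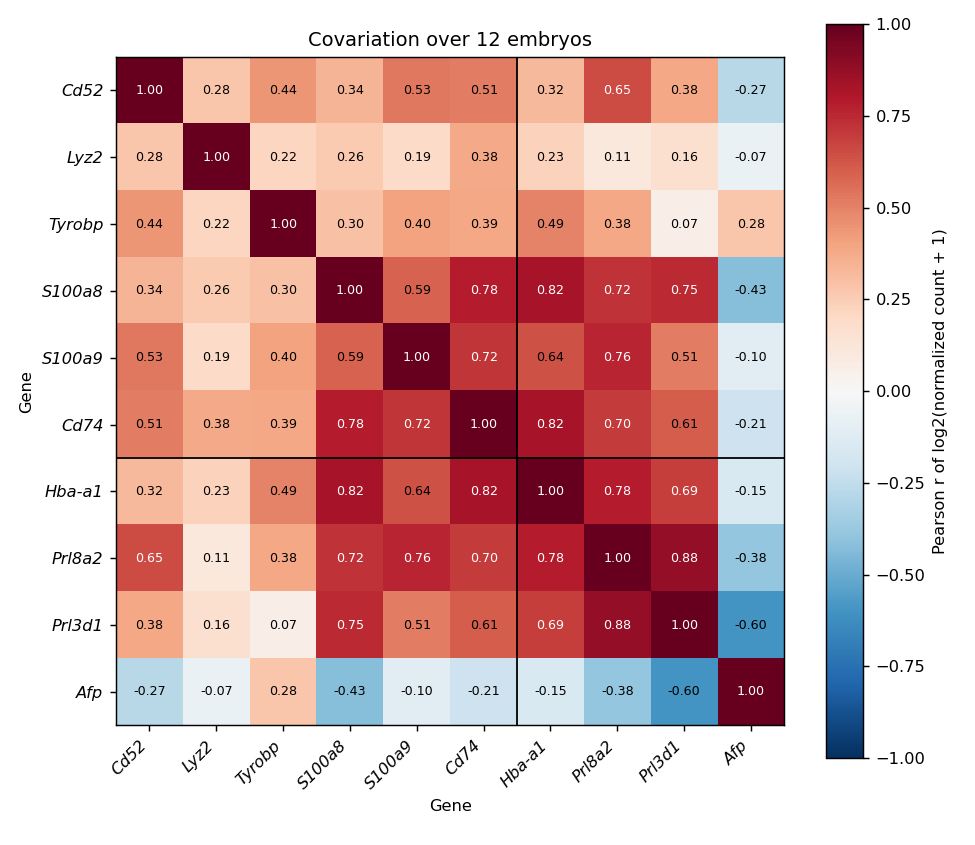
Pearson r over the 12 embryos, on log2(normalized count + 1), for 6 of the leukocyte genes and 4 genes of other tissues, with the black lines between the groups. The square of S100a8, S100a9 and Cd74 with Hba-a1 and Prl8a2 holds r from 0.59 to 0.82, and the Lyz2 row holds none above 0.38 other than with itself.

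Genes of other tissues were then set beside the 6 genes, 1 gene per tissue. Hba-a1 is adult alpha globin, Prl8a2 marks decidua, Prl3d1 (placental lactogen) marks trophoblast giant cells, Afp marks visceral endoderm and Lamb1 parietal endoderm. Each is a single gene, and the other genes of its list need not follow it. Of 30 relations, 5 passed, all of S100a8, S100a9 or Cd74 with Hba-a1, Prl8a2 or Prl3d1. These tissue genes also rose and fell with each other. Prl8a2 had r = 0.784 with Hba-a1 and 0.875 with Prl3d1, and Hba-a1 with Prl3d1 had 0.693. The 5 relations are thus not separate links to separate tissues. Since littermates share a mother, the relations were also computed by litter, with exact permutation tests. Over the means of 7 litters (6 for Lamb1) 0 of the 30 passed. With litter means subtracted (8 embryos, and 6 embryos of 2 litters for Lamb1) 0 passed either. There the smallest p possible was 0.0139 with 72 orders, and 0.0278 with 36 orders for Lamb1. A relation could thus pass the adjustment over 30 only if several others were also at the smallest p, so this 0 says little. In that test, Cd74 with Hba-a1 had r = 0.960 and p = 0.0417 by exact permutation, adjusted p = 0.521. Relations with Lamb1 were computed over the 10 embryos that do not stand apart in it.

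With Hba-a1, which ran from 142 in female replicate 3 to 3412 in female replicate 1, S100a8 had r = 0.823 (adjusted p = 0.0311 by the permutation test, rho = 0.734, adjusted p = 0.0868) and Cd74 r = 0.821 (adjusted p = 0.0311, rho = 0.818, adjusted p = 0.0420). Of all other genes tested, 1.09% had an r of at least 0.7 with Hba-a1. Without the embryos farthest out in Hba-a1, female replicate 3 and male replicate 6, r fell to 0.398 for S100a8 (permutation p = 0.253) and 0.647 for Cd74 (permutation p = 0.0404). With Prl8a2, which ran from 2397 to 41907, S100a9 had r = 0.763 (adjusted p = 0.0311, rho = 0.801) and S100a8 r = 0.721 (adjusted p = 0.0467, rho = 0.685), while Cd74 had r = 0.699 (adjusted p = 0.0555). An r of at least 0.7 with Prl8a2 was seen for 1.34% of the other genes. Without female replicate 3 and male replicate 3, these r were 0.711 for S100a9, 0.799 for S100a8 and 0.734 for Cd74. With Prl3d1, S100a8 had r = 0.745 (adjusted p = 0.0311, rho = 0.657), which was 0.333 without female replicates 3 and 2 (permutation p = 0.342), and 1.65% of the other genes had an r of at least 0.7.

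The count of 5 depends on single embryos. Without female replicate 1, female replicate 3 or male replicate 6 none of the 30 relations passed, without female replicate 2 there was 1 and without male replicate 5 there were 2, whereas without male replicate 2 there were 10. Female replicate 3 was the lowest of all 12 embryos in S100a8, Cd74, Hba-a1, Prl8a2 and Prl3d1. Lyz2 had r of 0.234 with Hba-a1, 0.106 with Prl8a2, 0.159 with Prl3d1, -0.069 with Afp and -0.273 with Lamb1 (n = 10), none past the threshold. Tyrobp had r of 0.494, 0.385, 0.067, 0.281 and 0.007 with the same genes. The Lamb1 values leave out female replicate 5 and male replicate 4, the highest embryos in Lyz2, so the sign for Lyz2 holds for the other 10 only. Over all 12 embryos Lyz2 with Lamb1 did not pass either. The levels differ by much: Prl8a2 was 106.7-fold and Hba-a1 13.7-fold higher in mean than Cd74. The part of maternal blood or decidua in these values was not tested.

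**Figure D4:**
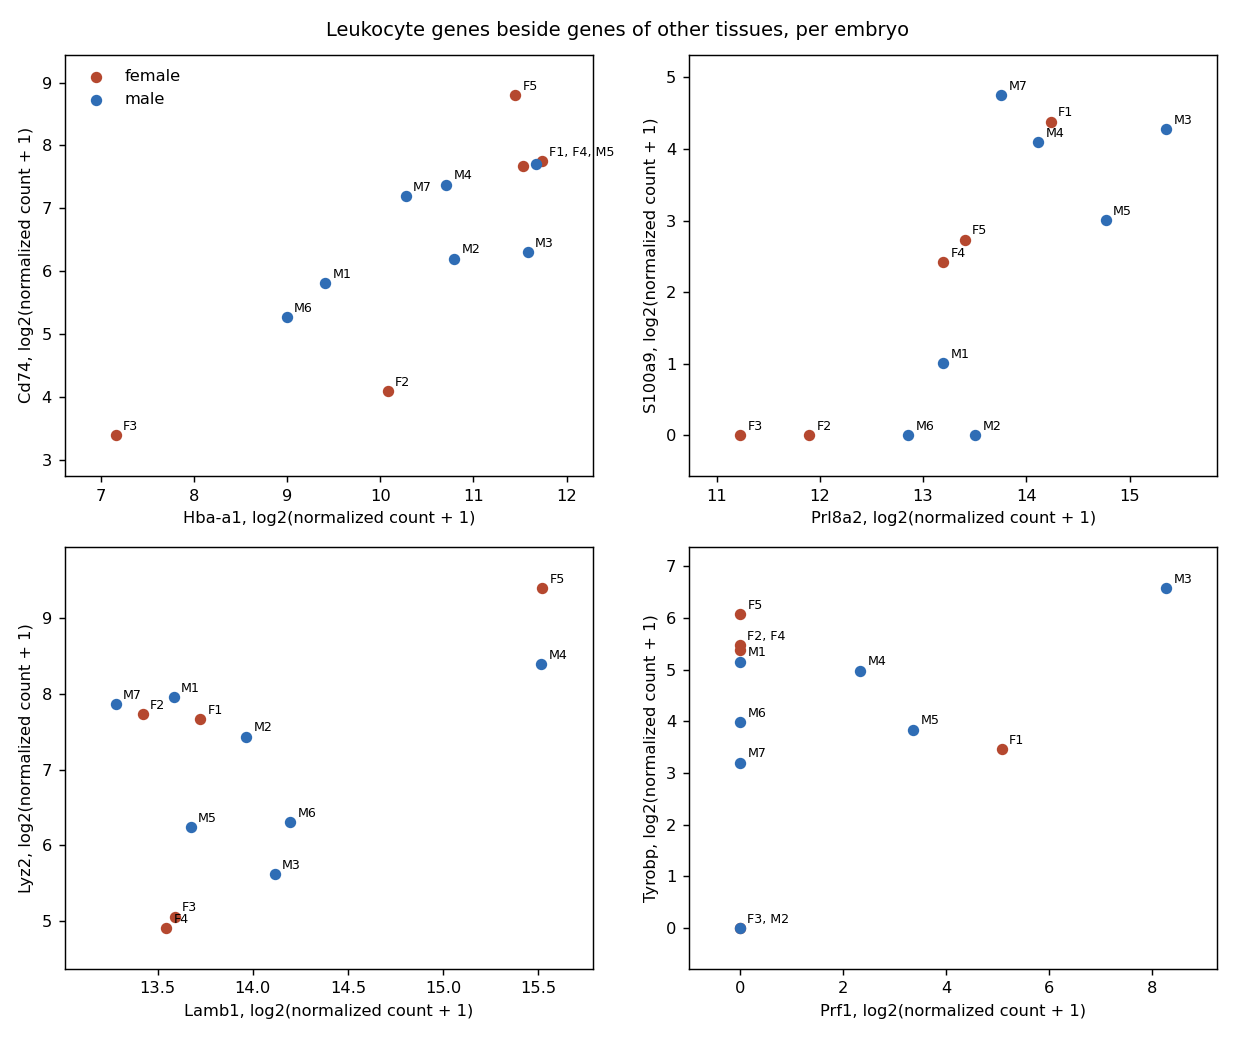
Cd74 against Hba-a1, S100a9 against Prl8a2, Lyz2 against Lamb1 and Tyrobp against Prf1, each as log2(normalized count + 1), 1 point per embryo coloured by sex. Female replicate 3 lies at the low end of Hba-a1 and Prl8a2, female replicate 5 and male replicate 4 lie apart in Lamb1 and highest in Lyz2, and male replicate 3 lies alone in Prf1.

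Xist RNA coats the inactive X chromosome in cells with more than 1 X chromosome. What gave the low Xist values in male libraries was not tested, and strand use in counting is not given. Xist was at 0, 8.42, 1.66, 0, 8.19, 38.6 and 7.06 normalized counts in male replicates 1 to 7, and at 109 to 560.7 in females. The male with the highest Xist, replicate 6, held Cd74 at 37.6 and S100a8 at 55.1, the lowest of the males in both. It also held Ptprc at 28.3, the highest of all 12 embryos, and Cd52 at 11.9, among males below replicate 5 only. Its Lyz2 and Tyrobp, at 78.1 and 14.8, lay between those of other males, and its S100a9 and C1qa were at 0. Male replicate 3, the highest in Prf1, Gzma, Gzmb and Il2rb, held Xist at 1.66. Over the 7 males none of 6 relations with Xist passed, with r from -0.486 for Tyrobp to 0.070 for Cd52 (exact permutation test, adjusted p from 0.706 to 0.886).

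The series compares the sexes, and the leukocyte genes gave no difference between them past the threshold. Of the 8 genes, 4 had at least 10 normalized counts in at least 5 embryos and were tested (Lyz2, Tyrobp, S100a8 and Cd74), and by limma 0 of these 4 passed, while 0.0425% of all 16455 genes did. None of the 4 had an unadjusted p below 0.05, against 10.8% of all genes. In the authors' deposited table, of the 7 genes with an adjusted p, 0 were below 0.05, against 1.14% of 18821 genes.

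Females averaged 103.7 ± 85.3 normalized counts of S100a8 and males 124.4 ± 57.5 (SD over 5 and 7 embryos, as for the genes that follow). Female over male, the log2 fold change came to -0.77 (SE 0.66, 95% interval -2.18 to 0.64, adjusted p = 0.722 by limma). Cd74 averaged 177 ± 178 in females and 108.6 ± 63.9 in males, and its log2 fold change came to -0.21 (SE 0.86, interval -2.04 to 1.62, adjusted p = 0.961 by limma). For Lyz2 the averages were 229.2 ± 262.7 and 169.5 ± 107.4, and the log2 fold change came to -0.16 (SE 0.74, interval -1.75 to 1.42, adjusted p = 0.968 by limma). Both genes thus had a higher mean count but a lower mean log2 value in females, who hold the highest and the lowest value of each. Tyrobp, at 32.0 ± 26.9 and 28 ± 31.7, gave 0.11 (SE 1.18, interval -2.41 to 2.64, adjusted p = 0.991 by limma). These intervals include differences of more than 2-fold in either direction for Lyz2, Tyrobp and Cd74, so the data do not show that the sexes are alike.

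The 4 genes below the filter are given by their means. Cd52 averaged 3.65 ± 5.83 in females and 10.01 ± 8.24 in males, S100a9 5.96 ± 8.16 and 9.76 ± 10.4, Ptprc 3.93 ± 8.79 and 8.98 ± 11.9, and C1qa 3.37 ± 7.53 in females, with 0 in all 7 males. In a fit without the filter, Cd52 had a log2 fold change of -1.71 (SE 0.92, adjusted p = 0.672 by limma).

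Among 121 tested genes of the lists none passed by limma. In the pan-leukocyte list, 5 of 13 tested genes had positive log2 fold changes (median -0.35), in the macrophage list 3 of 10 (median -0.33), in the MHC class II list 4 of 8 (median -0.06) and in the natural killer list 2 of 7 (median -0.20). The neutrophil list had 0 of 4 (median -1.24), and its summed level was 251 to 1936 in females and 850 to 3313 in males. Mmp9, which the giant cell list also holds, made up 34.6% to 87.8% of that sum in females and 74.8% to 91.6% in males, and without it the sums were 154 to 327 and 115 to 426. Medians were 0.03 for 7 T cell, 0.27 for 3 B cell and 0.18 for 4 complement genes. They were -0.47 for 5 genes of the list of Tyrobp and its partners and -0.09 for 11 genes of the S100 list (0.03 without S100pbp). The lists of other tissues had medians of -0.09 for 7 adult red cell, -0.20 for 2 embryonic red cell, 0.21 for 14 decidual, -1.84 for 6 giant cell, 0.59 for 10 visceral endoderm, -0.02 for 8 parietal endoderm and 0.13 for 7 endothelial genes, against -0.00 over all genes tested. Prl8a2, the gene set beside the leukocyte genes for decidua, had a log2 fold change of -1.14 (adjusted p = 0.430 by limma), while 9 of the 14 decidual genes had positive ones.

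Genes whose pattern over the 12 embryos is most like each of 6 leukocyte genes (Ptprc and C1qa left out) were on none of the leukocyte lists. All 17 lists together held only 121 of the 16455 genes tested, so their absence says little about the leukocyte genes. By Spearman rho among all genes tested, Lyz2 was most like 4930579G18Rik (rho = 0.947), Alg1, a mannosyltransferase (0.909), and Ccn2, a secreted matrix-associated growth factor (0.874). Tyrobp was most like Pard6a, a cell polarity protein (0.942), Ugt1a6a (0.879) and Mrpl10, a mitochondrial ribosomal protein (0.869). S100a8 was most like C230085N15Rik (0.944), Fam219a (0.923) and Lsm14a, an RNA-binding protein (0.916), and S100a9 most like Tfcp2, a transcription factor (0.925), Aoc1, a diamine oxidase (0.918), and Armc1 (0.897). Cd74 was most like Spty2d1 (0.895), Sphk1, a sphingosine kinase (0.888), and Ifit1, an interferon-induced gene (0.880), and Cd52 most like Eri2 (0.925), B4gat1 (0.904) and Itgb1, an integrin chain (0.904). The mean of the 4 tested leukocyte genes was most like Crebrf (Pearson r = 0.919), Gm50045 (0.916), Lsamp (0.910), Ap5m1 (0.903) and Vasn (0.886). These are the highest of 16454 or more values each, and are given as a description.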

How the data were processed

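Per the labels' protocols, RNA of 12 embryos went into low-input Nextera XT libraries for paired-end sequencing. Tools in the submitters' processing notes are STAR 2.7.7a, cutadapt 4.1, DESeq2 1.34.0 and Salmon 1.5.2, with the mm10 build. Their settings, strand use among them, are not given in the sources used here. The authors deposited variance-stabilized log2-scale values per embryo (floor 10.4141), a mean signal per gene in normalized counts, and a log2 fold change with its standard error (read as a score), p-value and adjusted p-value. The fold changes and p-values served only as values of the authors.

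Inversion of the transformation in closed form gave normalized counts; the mean equalled the deposited one (relative tolerance 1e-06) for 25183 of 25451 genes above 0 and for all 8 genes. Between 76.5% and 79.4% of low values lay within 0.1 of whole fragments, so whole reads were not recovered and no count model was used. Values of 1 to 3 fragments carry wide counting error, and amplified fragments are not independent molecules.

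Sex was fitted with limma 3.58.1 (R 4.3.3, mean-variance trend, two-sided, Benjamini-Hochberg, threshold 0.05) on log2(count + 1), which understates changes of low genes, for 16455 genes with at least 10 in at least 5 embryos. Correlations used two-sided permutation tests with 100000 resamples in scipy 1.17.1, exact for under 10 values, adjusted within each family (15, 30 and 6 relations). The design named all 12 embryos for Lamb1; 10 were used, since 2 stand apart. The scripts were tested on simulated data. Leukocyte genes and the 17 lists were chosen with earlier results of these data known. Named genes are the 8, list genes past the threshold or else up to 3 of highest mean, the 3 most alike each, 5 most like their mean, the comparators, Lyz1, Fcer1g, Hcst, C1qb and C1qc; other names were chosen after their values were seen. The result of 1 list gene is not reported here. Replicate numbers did not pair embryos (r of same-numbered deviations from -0.068 to 0.009); littermates share a dam, with r from -0.041 to 0.070. Coordinates are GRCm38 (GENCODE M21), counted from 1.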

Additional observations from a re-analysis of the deposited data

Results flagged for a closer look

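Of 43 groups of 5 females or 7 males checked, 12 held a sample far from the others by Dixon's criterion. Its rate of about 1 in 20 groups by chance is for independent values from a normal distribution. The counts were checked without a log transformation, many are 0, and the natural killer sum holds Prf1 and Gzmb. The 12 can therefore not be set against that rate. Among the leukocyte genes, female replicate 1 was alone in Ptprc (19.65, the other females at 0) and apart in S100a9 (19.84 against 5.64 for the next female). Female replicate 5 was apart in Lyz2 (672.1 against 210.9) and alone in C1qa (16.83 against 0). Male replicate 3 was apart in Tyrobp (94.39 against 34.47 for the next male).

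Other genes set beside them gave the rest. Lamb1 was at 47040 in female replicate 5 (next 13530) and at 46850 in male replicate 4 (next 18770). Prf1 was at 32.93 in female replicate 1 (next 0) and at 309.6 in male replicate 3 (next 9.28). That male was also apart in Gzmb, at 274.8 (next 47.05), and in the summed natural killer list, at 1497 (next 357.2). The summed T cell list was highest among males in replicate 5, at 2975 (next 2408).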

How the results depend on the processing

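Of Lyz2, Tyrobp, S100a8 and Cd74, none passed in the sex comparison under the other settings that tested them or without any 1 embryo; the other 4 genes were tested only without the filter, where none passed. Among list genes 0 passed, and 0 to 1 when 1 embryo was left out, the 1 without male replicate 1. Over all genes the count of 7 became 2 with a filter of at least 10 in at least 9 embryos, under which Tyrobp was not tested, and 5 to 9 when 1 embryo was left out. With litter as a replicate block it was 4, and 4 with the replicate number as a block, though the numbers do not pair embryos.

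The log2 fold change of Tyrobp turned to -0.057 with a pseudocount of 0.1, -0.58 with the litter block and -0.034 with the number block; Lyz2 turned to 0.027 on the deposited log2 scale and 0.39 with the litter block; and Cd74 turned to 0.051 on the deposited scale. Leaving out 1 embryo gave -0.77 to 0.35 for Lyz2, -0.55 to 1.13 for Tyrobp, -0.83 to 0.53 for Cd74 and -1.17 to -0.06 for S100a8. Adjusted p by limma over all settings ran from 0.559 (S100a8) to 0.999 (Cd74). The cause was not tested.

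The 1 covarying pair became 2 with a pseudocount of 0.1, 0 with a pseudocount of 10, 0 over litter means and 0 by Spearman's rho, and 0 to 2 when 1 embryo was left out. The 5 relations with other tissues became 1 with a pseudocount of 10, 0 over litter means and 2 by Spearman's rho, and 0 to 10 when 1 embryo was left out. Of alternatives added after seeing the data, Lamb1 over all 12 embryos gave 5, and litter means subtracted gave 0 pairs and 0 relations; with 72 orders a lost call need not reflect litter. Cd74 with Hba-a1 passed in 15 of 20 settings and S100a8 with Cd74 in 9 of 19. Xist relations gave 0 throughout. Ptprc, Cd52, S100a9 and C1qa rest on at most 25.7 fragments a library, too few for firm folds, and 7 litter means limit the tests by litter.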
